A study of Mus musculus with 12 samples.

Results

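The genes described here are 10 components and targets of the Hippo pathway in mouse liver tumors, out of 24421 gene symbols counted in each library. They were chosen by symbol: the transcriptional effectors Yap1 and Wwtr1 (the gene of Taz), their DNA-binding partners Tead1 and Tead4, the kinase gene Lats2, the adaptor genes Amotl2 and Ajuba, and the target genes Ankrd1, Cyr61 (also called Ccn1), and Ctgf (also called Ccn2). The count files list the last 2 under the older symbols, and all 10 had reads in every library. The choice of these genes, and of the wider lists below, was made with earlier results of these data known. RNA was sequenced from 6 liver tumors and 6 non-tumoral livers of the same 6 mice, each tumor and each liver being 1 library. All mice, livers included, carried an allele in which the promoter of Cdkn1a (p21) drives a Tert coding sequence, active Tert in the 4 p21+/Tert mice and a catalytically inactive form in the 2 p21+/TertCi mice. They were kept on a standard diet and were over 18 mo old, and no liver of a WT mouse was analysed here. Tumor names hold the genotype (T or TCi), HCC (hepatocellular carcinoma) or HCA (adenoma), and the number of the mouse, and a liver is named here by the tumor it is paired with. The liver paired with T-HCC662 carries another number in its label and was assigned by elimination. The histology given for T-HCC663 is an adenoma, against its name. From exome sequencing of the tumors, T-HCC662 and T-HCC663 carried a Ctnnb1 mutation, T-HCC941 an Egfr mutation, and TCi-HCC981 an Hras mutation, and T-HCA992 and TCi-HCA984 carried none in these 3 genes. Both Ctnnb1-mutated tumors came from p21+/Tert mice, so this class holds a single genotype.

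The Hippo pathway is a kinase cascade that restrains organ size, and it is best known in the liver, where its loss enlarges the organ and leads to tumors. The kinases Lats1 and Lats2 phosphorylate Yap1 and Taz, which are then held in the cytoplasm or degraded, and unphosphorylated Yap1 and Taz enter the nucleus and switch on genes through Tead factors. Several of these target genes encode inhibitors of Yap1 and Taz, Lats2 and Amotl2 among them. Because the control acts largely on protein phosphorylation and location, RNA levels measure the amounts of transcript of the components and targets and not the activity of Yap1 or Taz.

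Between 14571716 and 26170661 reads were assigned to genes per library. Levels are given as CPM (counts per 1000000 reads), scaled between libraries by the TMM method, and differences between tumors and livers as log2 fold changes from edgeR's quasi-likelihood test with their standard error (SE) and Benjamini-Hochberg adjusted p. A gene is called changed where this adjusted p is under 0.05. Axin2, a β-catenin target gene, was at 72.9 and 81.2 CPM in the Ctnnb1-mutated tumors, between 9.86 and 13.9 CPM in the livers, and between 1.46 and 4.15 CPM in the other tumors. Tert was between 4.69 and 26.1 CPM in all libraries, and the defining hepatocyte marker Alb was between 5982 and 72143 CPM. Between the driver classes Tert was called lower in the Ctnnb1-mutated tumors (4.69 and 7.98 CPM) than in the other tumors (9.39 to 26.1 CPM). These are bulk tissues, in which fewer cells of a type and less RNA per cell cannot be told apart, and the sequencing run of each library is not known.

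Wwtr1 and Ajuba rose in the tumors, and each was higher in all 6 tumors than in any of the 6 livers. Yap1 itself was at about the same level in both tissues. Tead4 and Lats2 rose in the 4 tumors without a Ctnnb1 mutation and were near the liver level or below it in the Ctnnb1-mutated pair, and the call of Lats2 was lost when blocked by mouse (adjusted p = 0.0643) and in 6 other alternatives. The target genes Ankrd1, Cyr61, and Ctgf differed from mouse to mouse and were not called against the livers, except in some alternative fits given below for Cyr61 and Ctgf in these 4 tumors. Over all 6 tumors against all 6 livers, 2 of the 9 members tested were called, both higher, where 10.7% of the 13822 genes tested were called (6.77% higher and 3.91% lower), and Tead4 did not pass the filter on low counts. All tumors lay above all livers in 2.93% of the genes tested.

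**Figure D1:**
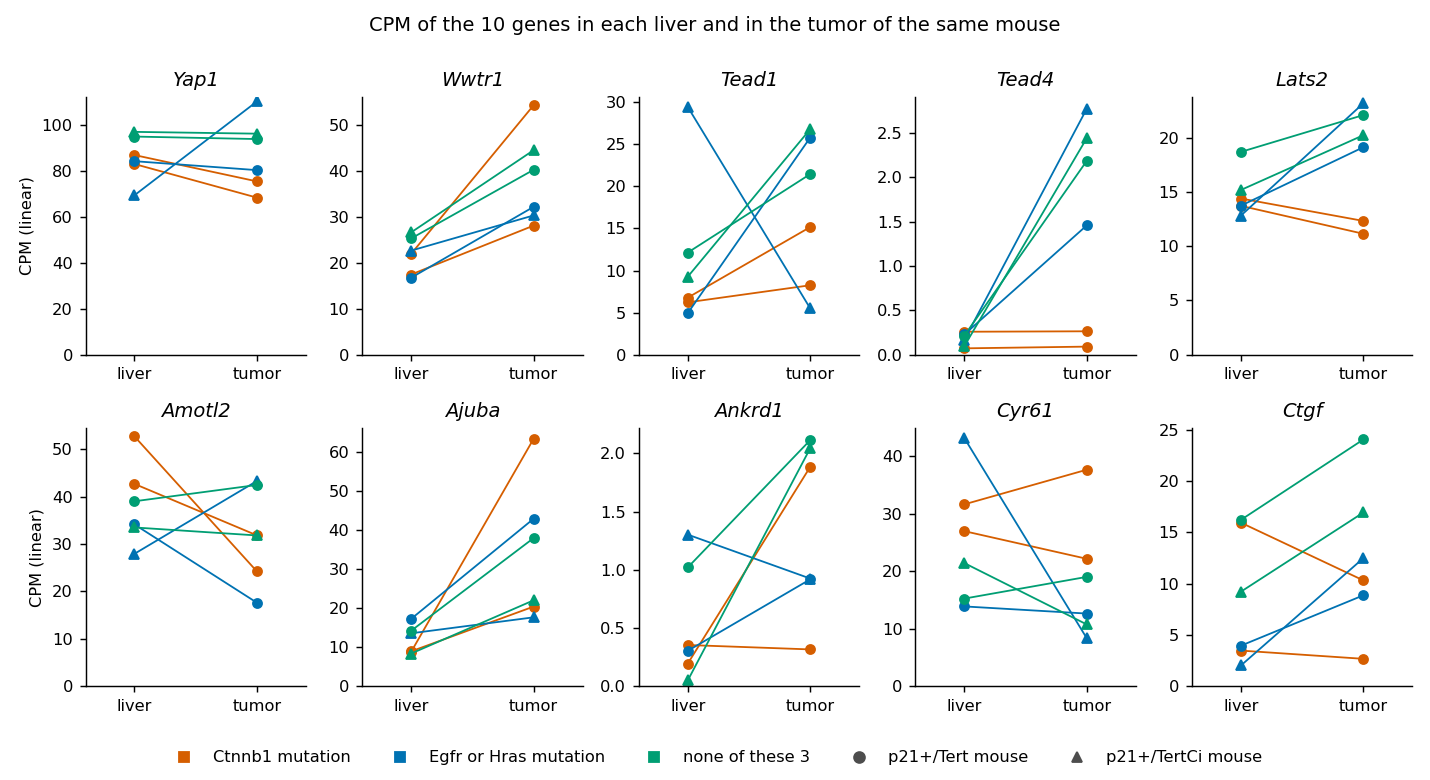
CPM (y axis, linear, a scale of its own for each gene) of the 10 genes in each liver and in the tumor of the same mouse, joined by a line; colors give the driver class and symbols the genotype. The lines of Wwtr1 and Ajuba rise in all 6 mice, and those of Tead4 are steep only in the 4 tumors without a Ctnnb1 mutation.

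Tead factors recognize the letters GGAATG or, on the other strand, CATTCC. In RefSeq promoter windows of 300 bases (250 before the annotated start and 50 after it, GRCm38.p6), 7 of the 10 genes had an entry, with 9 windows in all, and 8 of these windows held the 6 letters on either strand. Windows of Wwtr1 overlap and hold the same match, so it counts more than once among the 8. The share among all 32851 windows was 14.7%. By gene, all 7 members with an entry held the letters in a window, as did 16.6% of the 27025 genes with an entry. Tead1, Tead4, and Ccn2 had no entry. The stretches below show the matches of the 2 genes that rose in the tumors (Wwtr1 and Ajuba), of Yap1, which was not called, and of the target gene Cyr61, each read 5′ to 3′ on the strand of the gene with the matching letters in capitals.
Wwtr1 (chr3:57576014-57576073, minus strand): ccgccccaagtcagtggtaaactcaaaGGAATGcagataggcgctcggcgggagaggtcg
Ajuba (chr14:54577793-54577874, minus strand): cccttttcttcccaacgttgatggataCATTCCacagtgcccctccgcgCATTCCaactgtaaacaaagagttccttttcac
Yap1 (chr9:8004705-8004764, minus strand): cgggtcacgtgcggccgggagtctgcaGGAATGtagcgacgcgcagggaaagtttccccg
Cyr61 (chr3:145650056-145650115, minus strand): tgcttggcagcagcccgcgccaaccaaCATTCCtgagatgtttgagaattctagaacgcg

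Relative to the RefSeq start, the matches began at -186 and -164 in Ajuba, -141 in Yap1, and -103 in Cyr61. The same match of Wwtr1 lies in overlapping windows, at -170 and -136 from their starts. The Ajuba window (54577612 to 54577911) lies wholly before the gene as GENCODE M21 places it (54567472 to 54577558, minus strand), so its distances hold for the RefSeq start only. Wwtr1 and Yap1 held GGAATG on their own strand, and Ajuba and Cyr61 held CATTCC. Those of Ankrd1 (at -210 and -123) and Amotl2 (at -65) lay in stretches that are annotated as exon in another transcript and are not shown, and that of Lats2 lay after the start. The letters are a description of the windows, present in genes that rose and in genes that were not called, and no binding was measured.

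Yap1 (chromosome 9, 7931999 to 8004596 on GRCm38) encodes the main effector of the pathway. Its level in the 6 livers was 69.4 CPM at the lowest, 85.5 at the median, and 96.9 at the highest. In the tumors it was 75.4 CPM in T-HCC663, 68.3 in T-HCC662, 80.3 in T-HCC941, 110.2 in TCi-HCC981, 93.8 in T-HCA992, and 96.1 in TCi-HCA984. The 2 tissues overlapped almost completely, with the lowest tumors those with a Ctnnb1 mutation and the highest TCi-HCC981, whose own liver was the lowest of the livers. Its log2 fold change over all tumors was 0.02 (SE 0.15, adjusted p = 0.953).

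Wwtr1 (chromosome 3, 57455649 to 57575910) encodes Taz, the paralog of Yap1. Its livers were at 16.8, 22.3, and 26.7 CPM (lowest, median, and highest), and its tumors at 28.1 in T-HCC663, 54.4 in T-HCC662, 32.2 in T-HCC941, 30.4 in TCi-HCC981, 40.3 in T-HCA992, and 44.6 in TCi-HCA984. The lowest tumor, T-HCC663, stood just above the highest liver, that paired with TCi-HCA984, and the highest was the other Ctnnb1-mutated tumor. Over all tumors Wwtr1 rose by 0.80 on the log2 scale (SE 0.19, adjusted p = 0.0179), and Wwtr1 was called in all 17 alternative settings tried for this comparison, with adjusted p between 0.00144 and 0.0457. Against its own liver, each tumor was higher, by 0.42 (TCi-HCC981) to 1.30 (T-HCC662) on the log2 scale. A gene was higher than the own liver in all 6 mice in 11% of the genes tested.

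Per kilobase of exon, Wwtr1 was the less abundant of the 2 effectors in every liver. The ratio of Wwtr1 to Yap1 in CPM per kb was between 0.386 and 0.634 in the livers. It was 0.723 in T-HCC663, 1.54 in T-HCC662, 0.778 in T-HCC941, 0.534 in TCi-HCC981, 0.832 in T-HCA992, and 0.898 in TCi-HCA984. In T-HCC662 alone the Wwtr1 level exceeded that of Yap1, whereas TCi-HCC981 lay within the range of the livers.

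Tead4 (chromosome 6, 128224288 to 128300823) encodes a Tead factor that is hardly transcribed in the adult liver. It was at 0.0706, 0.191, and 0.258 CPM in the livers (lowest, median, and highest), which stands for 1 to 4 reads per library. In the Ctnnb1-mutated tumors it was at 0.0901 CPM (2 reads, T-HCC662) and 0.263 CPM (6 reads, T-HCC663). In the other 4 it was at 1.46 CPM in T-HCC941, 2.77 in TCi-HCC981, 2.19 in T-HCA992, and 2.44 in TCi-HCA984, from 27, 54, 61, and 43 reads. These 4 tumors lay above all 8 remaining libraries, as they did in 5.54% of the genes tested, and T-HCC662 stayed within the range of the livers. Against the livers, Tead4 in the 4 tumors rose by 3.63 on the log2 scale (SE 0.47, adjusted p = 0.000408), and in the Ctnnb1-mutated tumors the difference was 0.02 (SE 0.63, adjusted p = 0.991). In the comparisons by class and by genotype, Tead4 passed the filter on low counts only through tumors in which it is high. Its tests there are therefore a description and not separate support for the rise. Over all 6 tumors Tead4 could be tested only without the filter on low counts, and the log2 fold change there was 3.11 (adjusted p = 0.0215, SE 0.74).

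Tead1 (chromosome 7, 112679318 to 112906807) encodes the Tead factor of broadest expression. Its livers were at 4.93, 8.01, and 29.4 CPM (lowest, median, and highest). Its tumors were at 15.2 CPM in T-HCC663, 8.25 in T-HCC662, 25.8 in T-HCC941, 5.50 in TCi-HCC981, 21.5 in T-HCA992, and 26.8 in TCi-HCA984. TCi-HCC981 stood apart as the lowest tumor with the highest own liver, and in the other 5 mice the tumor was above its own liver. The log2 fold change over all tumors was 0.57 (SE 0.48, adjusted p = 0.495). For the 4 tumors without a Ctnnb1 mutation it was 0.78 (adjusted p = 0.304), and without the liver paired with TCi-HCC981 it was 1.32 (adjusted p = 0.0404), the only one of 18 alternatives in which Tead1 was called and the lower end of a range that reached 0.541.

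Tead3, a paralog outside the 10 genes, held the largest share of the Tead transcripts in the livers, 54.3% to 87.2% of the summed CPM per kb of Tead1 to Tead4. Among the tumors it was at 39.4% to 75.1%, and Tead3 itself fell (log2 fold change -0.62, SE 0.16, adjusted p = 0.0257, not called in 6 of 17 alternatives, each of which left out 1 library). The share of Tead4 was at most 2.15% in any liver. It was 0.761% in T-HCC662 and 2.04% in T-HCC663, and 8.57% in T-HCC941, 24.6% in TCi-HCC981, 13.3% in T-HCA992, and 12.7% in TCi-HCA984. The summed Tead level overlapped between the tissues, between 3.33 and 5.31 CPM per kb in livers and between 3.13 and 5.34 in tumors.

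**Figure D2:**
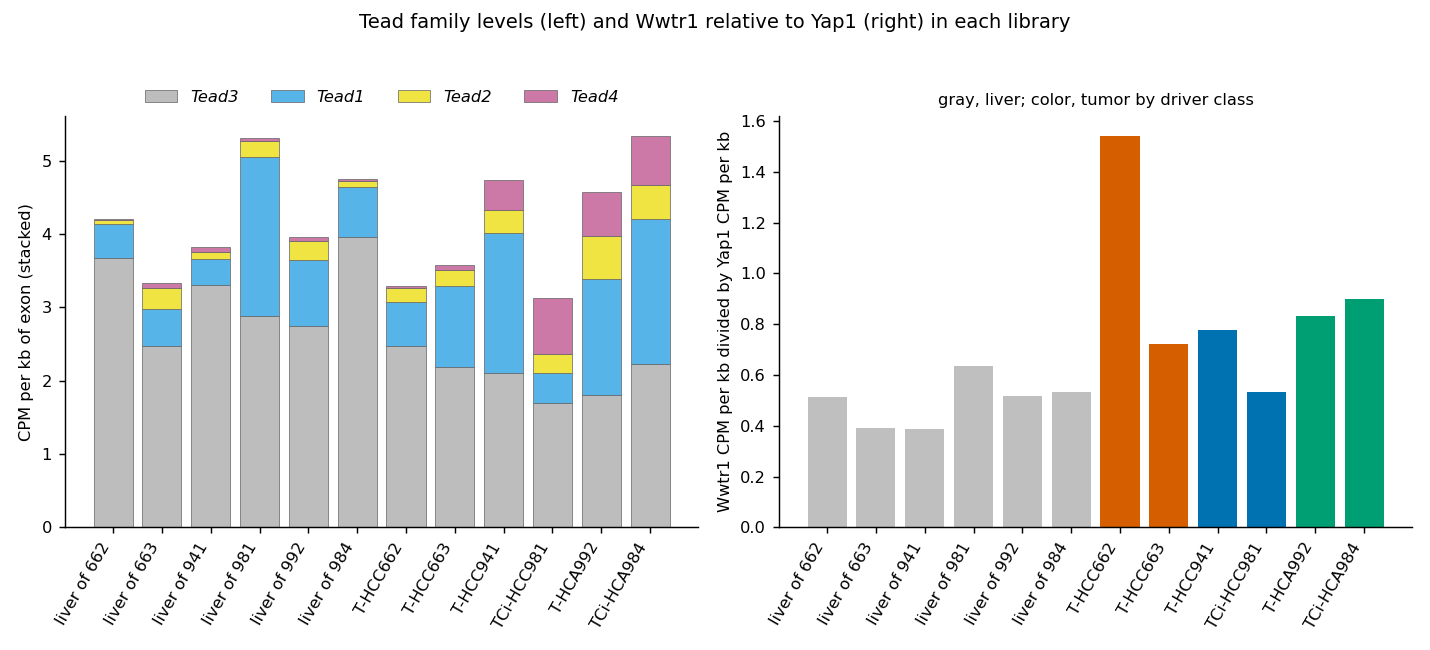
Left, CPM per kb of exon of Tead1 to Tead4 stacked for each library (6 livers, then 6 tumors); right, the ratio of Wwtr1 to Yap1 in CPM per kb, gray for livers and colored by driver class for tumors. The Tead4 segment is visible in the 4 tumors without a Ctnnb1 mutation, and the ratio is highest, 1.54, in T-HCC662.

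Lats2 (chromosome 14, 57689662 to 57758388) encodes a kinase that inactivates Yap1 and Taz and is itself one of their targets. It was at 12.8, 14.1, and 18.7 CPM in the livers (lowest, median, and highest), the highest being that paired with T-HCA992. In the Ctnnb1-mutated tumors it was at 11.1 CPM (T-HCC662) and 12.3 CPM (T-HCC663), a difference from the livers that was not called. In the others it was at 19.1 in T-HCC941, 23.2 in TCi-HCC981, 22.1 in T-HCA992, and 20.2 in TCi-HCA984, above all 8 remaining libraries, though by little over the liver paired with T-HCA992. These tumors lay above all 8 in 5.54% of the genes tested. The log2 fold change against the livers was 0.51 (SE 0.14, adjusted p = 0.0262) for these 4 tumors, -0.36 (SE 0.19, adjusted p = 0.288) for the Ctnnb1-mutated pair, and 0.28 (SE 0.20, adjusted p = 0.407) for all 6. Blocking by mouse, the first was 0.48 (adjusted p = 0.0643), and it was not called in 7 of 18 alternatives, among them those without the liver paired with T-HCC662, T-HCC663, or T-HCC941 or without T-HCA992 or TCi-HCC981 (adjusted p 0.0519 to 0.0758). The GENCODE M21 annotation places exons of Gm49361 over 2955 bases of Lats2 on its strand, and reads there may be shared.

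Amotl2 (chromosome 9, 102716672 to 102733418) encodes an angiomotin that binds Yap1 at cell junctions. It was at 27.9, 36.6, and 52.7 CPM in the livers (lowest, median, and highest). Its tumors were at 31.8 CPM in T-HCC663, 24.2 in T-HCC662, 17.6 in T-HCC941, 43.3 in TCi-HCC981, 42.5 in T-HCA992, and 31.8 in TCi-HCA984. The tissues overlapped, T-HCC662 and T-HCC941 lay below all livers, and TCi-HCC981 and T-HCA992 were above their own livers. Amotl2 differed from the livers by -0.27 on the log2 scale (SE 0.23, adjusted p = 0.489).

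Ajuba (chromosome 14, 54567472 to 54577558) encodes a LIM-domain protein that binds the Lats kinases and restrains them. It was at 8.34, 11.2, and 17.2 CPM in the livers (lowest, median, and highest). In the tumors it was at 63.3 CPM in T-HCC663, 20.4 in T-HCC662, 42.9 in T-HCC941, 17.6 in TCi-HCC981, 37.9 in T-HCA992, and 21.98 in TCi-HCA984. All tumors were above all livers, T-HCC663 by the widest margin and TCi-HCC981 barely above the liver paired with T-HCC941. Ajuba rose by 1.51 on the log2 scale (SE 0.33, adjusted p = 0.0111), and it was called in all 17 alternatives, with adjusted p between 0.000186 and 0.0326. Ajuba rose in both classes, by 1.80 (SE 0.41, adjusted p = 0.0191) in the Ctnnb1-mutated tumors and by 1.33 (SE 0.34, adjusted p = 0.0165) in the other 4. The first rests on T-HCC663, without which it was 0.78 (adjusted p = 0.467, the upper end of a range from 0.00237). The second was 1.12 without T-HCC941 (adjusted p = 0.0559) and 1.20 without T-HCA992 (adjusted p = 0.0502).

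Ankrd1 (chromosome 19, 36111961 to 36120099) encodes a nuclear ankyrin-repeat protein whose gene is a widely used readout of Yap1 and Taz. It was near the limit of detection, at 0.0485, 0.328, and 1.30 CPM in the livers (lowest, median, and highest) from 1 to 31 reads. Among the tumors it was at 1.88 CPM in T-HCC663, 0.315 in T-HCC662, 0.918 in T-HCC941, 0.925 in TCi-HCC981, 2.11 in T-HCA992, and 2.04 in TCi-HCA984. T-HCC663, T-HCA992, and TCi-HCA984 were above all livers, and the other 3 tumors lay among them. The log2 fold change of 1.31 had an SE of 0.66 (adjusted p = 0.226) and was not called in any of 17 alternatives.

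Cyr61 (chromosome 3, 145646976 to 145649981) encodes a secreted matricellular protein. It was at 13.9, 24.2, and 43.2 CPM in the livers (lowest, median, and highest), with the highest again paired with TCi-HCC981. Its tumors were at 37.7 CPM in T-HCC663, 22.2 in T-HCC662, 12.6 in T-HCC941, 8.32 in TCi-HCC981, 19.0 in T-HCA992, and 10.7 in TCi-HCA984. T-HCC941, TCi-HCC981, and TCi-HCA984 lay below all livers, and both Ctnnb1-mutated tumors lay within their range. The log2 fold change was -0.47 (SE 0.37, adjusted p = 0.460) for all tumors and -1.01 (SE 0.34, adjusted p = 0.0512) for the 4 without a Ctnnb1 mutation. The latter was called in 4 of 18 alternatives: by DESeq2 (-0.996), without the liver paired with T-HCC941 (-1.14) or T-HCA992 (-1.11), and without T-HCA992 itself (-1.28), and its adjusted p ranged from 0.0234 to 0.221.

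Ctgf (chromosome 10, 24595442 to 24598683) encodes the related matricellular protein of fibrotic tissue. It was at 2.02, 6.58, and 16.2 CPM in the livers (lowest, median, and highest). In the tumors it was at 10.3 CPM in T-HCC663, 2.66 in T-HCC662, 8.85 in T-HCC941, 12.5 in TCi-HCC981, 24.0 in T-HCA992, and 16.9 in TCi-HCA984. T-HCA992 and TCi-HCA984 were the highest of the 12 libraries, and the rest overlapped with the livers. Over all tumors the log2 difference was 0.57 (SE 0.56, adjusted p = 0.560). For the 4 tumors without a Ctnnb1 mutation it was 0.88 (SE 0.58, adjusted p = 0.296) without pairing, and 1.25 when each tumor was blocked with its liver (adjusted p = 0.0289), as each of these tumors was above its own liver, by 1.15 (T-HCC941), 2.57 (TCi-HCC981), 0.57 (T-HCA992), and 0.87 (TCi-HCA984). In the Ctnnb1-mutated tumors Ctgf was below the own liver, by -0.37 (T-HCC662) and -0.62 (T-HCC663). Exons of Gm15270 lie on the opposite strand over 665 of its 2861 exon bases. Those of Gm20416 lie so over 116 of the 9257 bases of Yap1, and how strand was handled in counting is not known.

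**Figure D3:**
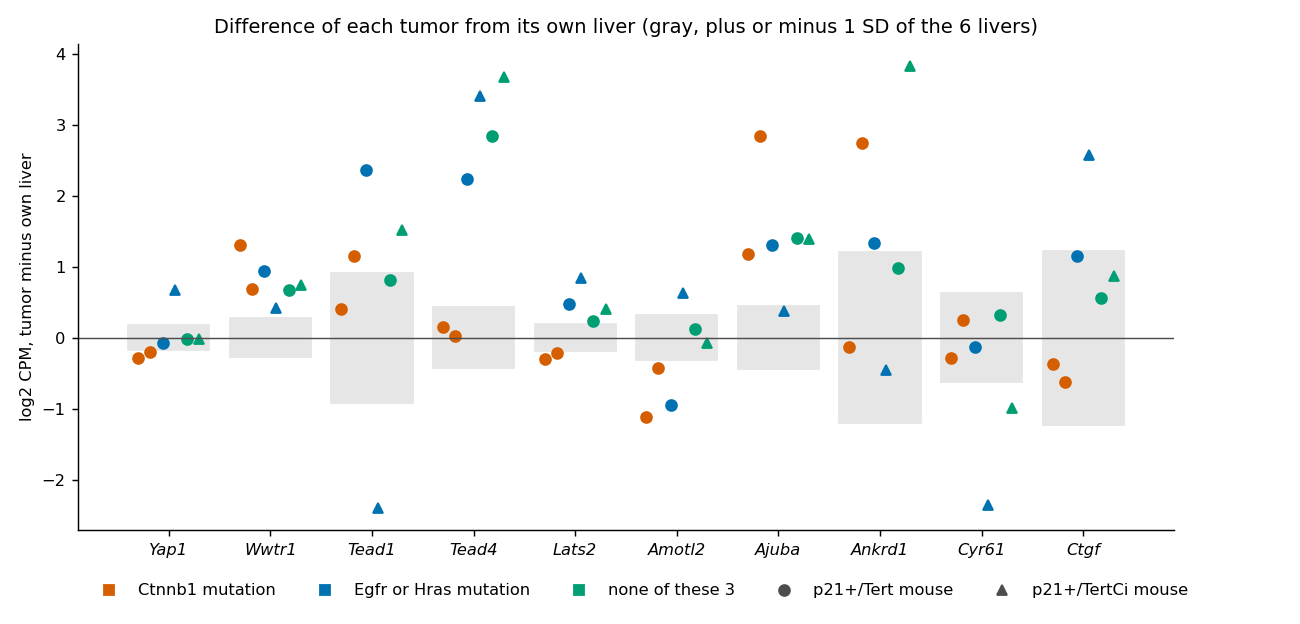
Difference in log2 CPM (y axis) between each tumor and the liver of the same mouse for the 10 genes (x axis); colors give the driver class, symbols the genotype, and gray boxes plus or minus 1 SD of the 6 livers. All 6 points of Wwtr1 lie above the box, and those of Tead1 run from -2.40 in TCi-HCC981 to 2.36 in T-HCC941.

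Tumor by tumor, T-HCC662 was above its own liver in 4 of the 10 genes, with a median difference of -0.20 on the log2 scale, and T-HCC663 in 6, with a median of 0.14. T-HCC941 was above in 7 genes (median 1.04), TCi-HCC981 in 7 (0.52), T-HCA992 in 9 (0.62), and TCi-HCA984 in 7 (0.81). The median over the genes tested was close to zero in each mouse. TCi-HCC981 had the widest spread among its genes: Tead4 was 3.41 higher than in its liver, whereas Tead1 was at -2.40 and Cyr61 at -2.36. Its liver held the highest Tead1, Ankrd1, and Cyr61 and the lowest Yap1, Amotl2, and Ctgf of the 6 livers. Wwtr1, Tead4, and Ajuba were higher than in the own liver in all 6 mice, although Tead4 by only 0.15 (T-HCC662) and 0.02 (T-HCC663) in the Ctnnb1-mutated pair.

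To ask whether the driver classes differed, the Ctnnb1-mutated tumors were compared with the 4 others directly. Tead4 (log2 fold change -3.61, SE 0.72, adjusted p = 0.0105) and Lats2 (-0.86, SE 0.20, adjusted p = 0.0200) were lower in the Ctnnb1-mutated tumors, 2 of the 10 members, where 11.8% of the 15182 genes tested were called (6.12% higher and 5.7% lower). Both calls depend on the fit, and Tead4 passed the filter on low counts only through the 4 others, where it is high. Blocking by mouse, which compares the changes from the own livers, Tead4 was at -3.50 (adjusted p = 0.136) and Lats2 at -0.76 (adjusted p = 0.178), no member was called, and the number of genes called went from 1795 to 502. Without T-HCC662, which leaves T-HCC663 as the only tumor of its class and assumes that it varies like the others, Tead4 was at -3.06 (adjusted p = 0.100) and Lats2 at -0.80 (adjusted p = 0.141). Without T-HCC663 Lats2 was at -0.92 (adjusted p = 0.0800) and Tead4 was still called. Cyr61 was 1.22 higher in the Ctnnb1-mutated tumors without passing the threshold (SE 0.43, adjusted p = 0.0807). Wwtr1 (0.15, adjusted p = 0.760) and Ajuba (0.47, adjusted p = 0.530) passed no test of a difference between the classes.

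Set against the livers, 1 of the 10 members was called in the Ctnnb1-mutated tumors (Ajuba, where 7.78% of genes were called and 4.8% were called higher) and 4 in the other tumors, all higher (Tead4, Ajuba, Lats2, and Wwtr1, 22.2% of genes called, 12% higher). Of these, Tead4 passed the filter on low counts only through the tumors in which it is high. Wwtr1 differed from the livers by 0.89 (SE 0.26, adjusted p = 0.0535) in the Ctnnb1-mutated tumors and by 0.74 (SE 0.21, adjusted p = 0.0255) in the others. The first was called in 6 of 18 alternatives, among them the fit when blocked by mouse (0.98, adjusted p = 0.0388) and those without the liver paired with TCi-HCA984 (0.96) or without T-HCC663 (1.32), and its adjusted p ranged from 0.0209 to 0.612. The second was not called without the liver paired with T-HCC663 (0.68) or T-HCC941 (0.68) or without T-HCA992 (0.70) or TCi-HCA984 (0.63), and its adjusted p ranged from 0.00808 to 0.0654. The comparisons share the same livers, and the classes differ in size, which alters how many genes can be called.

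**Figure D4:**
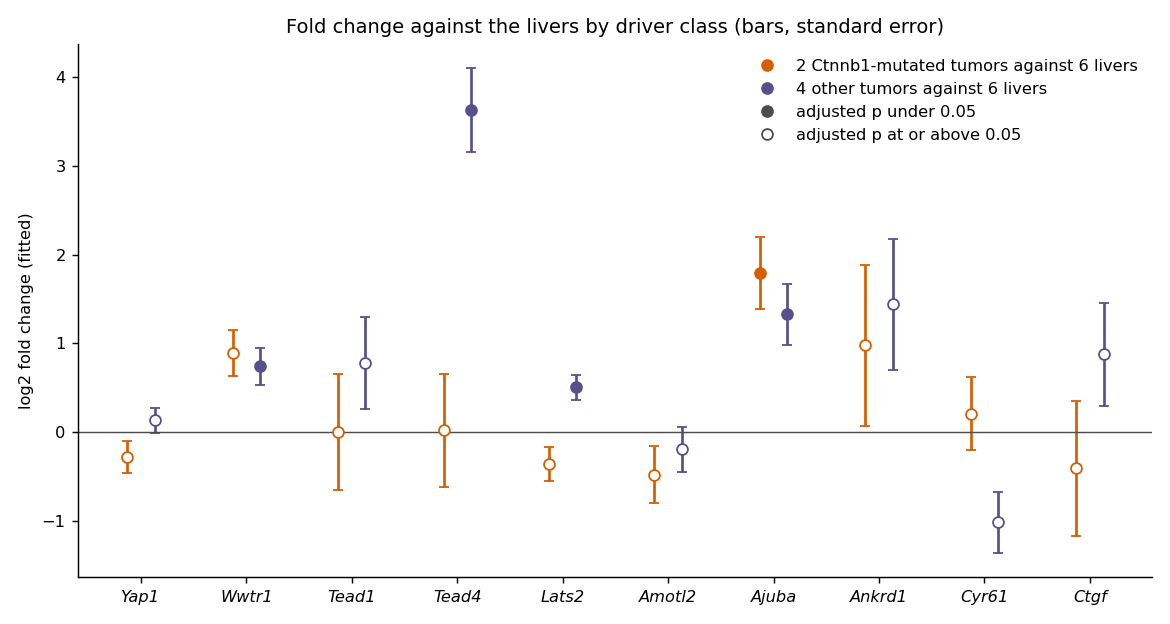
Fitted log2 fold change against the 6 livers (y axis) of the 10 genes (x axis) in the 2 Ctnnb1-mutated tumors and in the 4 others; bars are the SE and filled points have an adjusted p under 0.05. The classes stand apart for Tead4 (0.02 and 3.63) and lie on opposite sides of zero for Lats2 (-0.36 and 0.51) and Cyr61 (0.21 and -1.01), the last with neither value called. The -0.36 of Lats2 was not called either.

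Between the pair with an Egfr or Hras mutation (T-HCC941 and TCi-HCC981) and the pair without any of the 3 drivers (T-HCA992 and TCi-HCA984), edgeR called no gene, member or not (0 of 15182, 1331 at an unadjusted p under 0.05, and 105 called by DESeq2, none of them a member). The largest member difference was that of Ankrd1 (-1.20, SE 1.14, adjusted p = 0.763), and that of Wwtr1 was -0.47 (SE 0.31, adjusted p = 0.667), in each case lower in the Egfr or Hras pair. Each pair holds 1 tumor of each genotype and only 2 tumors, so that the values of the 4 tumors above say more than this test. The first pair are both carcinomas and the second both adenomas, so driver and tumor type cannot be told apart here.

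By genotype, Ajuba (1.72, SE 0.35, adjusted p = 0.0190) and Wwtr1 (0.91, SE 0.24, adjusted p = 0.0484) were called in the 4 p21+/Tert tumors against the 4 p21+/Tert livers, where 6.49% of genes were called, 4.2% higher. Ajuba was not called in the block without the T-HCC662 pair (adjusted p = 0.0516), nor without the liver paired with T-HCC662 (adjusted p = 0.0725) or T-HCC663 (adjusted p = 0.0656), and Wwtr1 was called in 7 of 18 alternatives, with log2 fold changes between 0.70 (without T-HCC662) and 1.05 and adjusted p up to 0.139 (without the liver paired with T-HCC663). In the 2 p21+/TertCi tumors no gene was called by edgeR (1618 at an unadjusted p under 0.05, 375 called by DESeq2), and Ajuba was at 0.84 (SE 0.49) and Wwtr1 at 0.59 (SE 0.34), both with adjusted p = 0.579. Tead4 was at 4.21 (SE 1.31) and Cyr61 at -1.77 (SE 0.55), both with adjusted p = 0.336, and DESeq2 called Tead4 (4.29, adjusted p = 0.0483). The difference of the change between the genotypes was called in no gene (556 at an unadjusted p under 0.05, 10 called by DESeq2). For Cyr61 this difference was 1.82 (SE 0.66), with an unadjusted p = 0.0191 that did not hold after adjustment (adjusted p = 1.00). Genotype and driver class overlap in these mice, since neither p21+/TertCi tumor carried a Ctnnb1 mutation, and a genotype difference among Ctnnb1-mutated tumors cannot be had. Within the p21+/Tert tumors alone, Tead4 was at 0.0901 and 0.263 CPM in the Ctnnb1-mutated pair and at 1.46 and 2.19 CPM in the other pair, and Lats2 was at 11.1 and 12.3 CPM and at 19.1 and 22.1 CPM.

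The rest of the pathway was described with a list of 27 further Hippo genes. Of 26 tested over all tumors and livers, 5 rose, 2 fell, and 19 were not called (of all genes tested, 6.77% were called higher and 3.91% lower), and the median log2 fold change was 0.32, against 0.01 over all genes tested. Map4k4, a kinase that acts on Lats1 and Lats2 in parallel with the core kinases, rose by 2.00 (SE 0.27, adjusted p = 0.00133), from 9.25 to 24.4 CPM in the livers to 35.9 to 79.0 CPM in the tumors, with no overlap. Frmd6, a FERM-domain protein upstream of the kinases, rose by 1.52 (SE 0.20, adjusted p = 0.000956), also without overlap (3.68 to 5.80 CPM and 9.04 to 17.98 CPM). Amot, the founding angiomotin, rose by 1.64 (SE 0.30, adjusted p = 0.00494). The protocadherin gene Dchs1 (1.59, adjusted p = 0.0494) and the phosphatase gene Ptpn14 (2.01, adjusted p = 0.0466), whose product binds Yap1, were called narrowly, and in 10 and 13 of 17 alternatives, respectively, they were not. For Ptpn14 these include blocking by mouse (adjusted p = 0.142) and all but 2 of the 12 libraries left out in turn. Tead3 fell, as given above, and so did the kinase gene Taok2 (-0.49, SE 0.14, adjusted p = 0.0421, called in 6 of 17 alternatives).

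Of the Hippo genes not called, the most abundant were Limd1, a relative of Ajuba (0.28, adjusted p = 0.461), the kinase gene Taok1 (-0.01, adjusted p = 0.965), and the atypical cadherin gene Fat1 (1.03, adjusted p = 0.0635). Fat1 was called when blocked by mouse (0.85, adjusted p = 0.0257). Between the driver classes 4 of the 27 were called, where 11.8% of all genes were. Amot was lower in the Ctnnb1-mutated tumors (-1.46, SE 0.24, adjusted p = 0.00338), at 8.79 and 10.4 CPM (T-HCC662 and T-HCC663) and at 24.6 to 28.0 CPM in the others, and it was also called when blocked by mouse (-1.76, adjusted p = 0.0213). The call was lost in the block without the T-HCC662 pair (-1.83, adjusted p = 0.101) and without the T-HCC662 tumor (-1.35, adjusted p = 0.0503), with the direction kept in both. Ptpn14 (-2.75, adjusted p = 0.0195) and Stk4, the gene of the core kinase Mst1 (-0.78, adjusted p = 0.0398), were lower, and Rassf1, whose product binds the Mst kinases, was higher (0.75, adjusted p = 0.0213). With blocking by mouse these 3 were not called (-2.96, -0.38, and 0.81, adjusted p 0.103, 0.439, and 0.155). They were called in 13, 9, and 13 of 18 alternatives, respectively, and none of them with only the libraries compared. Without T-HCC662, which leaves T-HCC663 alone in its class, they were at -2.94, -0.66, and 0.84. Without T-HCC663 they were at -2.57, -0.92, and 0.67.

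Of the other 17 genes of a published YAP and TAZ target signature, 15 were tested, 5 rose and none fell (6.77% and 3.91% of all genes tested), with a median log2 fold change of 0.86. Tgfb2, a secreted growth factor, rose by 3.05 (SE 0.47, adjusted p = 0.00230), from 0.194 to 1.02 CPM in the livers to 2.10 to 7.50 CPM in the tumors, and was called in all 17 alternatives. Igfbp3, a carrier of insulin-like growth factors, rose by 2.15 (SE 0.61, adjusted p = 0.0392), with T-HCC663 at 11.9 CPM within the livers' range. It was called in only 7 of 17 alternatives and was not called when blocked by mouse (1.86, adjusted p = 0.159). Asap1 (0.86, adjusted p = 0.0399), Crim1 (0.64, adjusted p = 0.0286), and Ptpn14, which is in both lists, were the others. Asap1 was not called in 8 of 17 alternatives and Crim1 in 4, each of which left out 1 library. The most abundant of those not called were the receptor kinase gene Axl (1.03, adjusted p = 0.271), Gadd45a (-0.29, adjusted p = 0.717), and Nt5e (1.61, adjusted p = 0.169). Axl was called when blocked by mouse (1.18, adjusted p = 0.0126) and without the liver paired with TCi-HCC981.

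**Figure D5:**
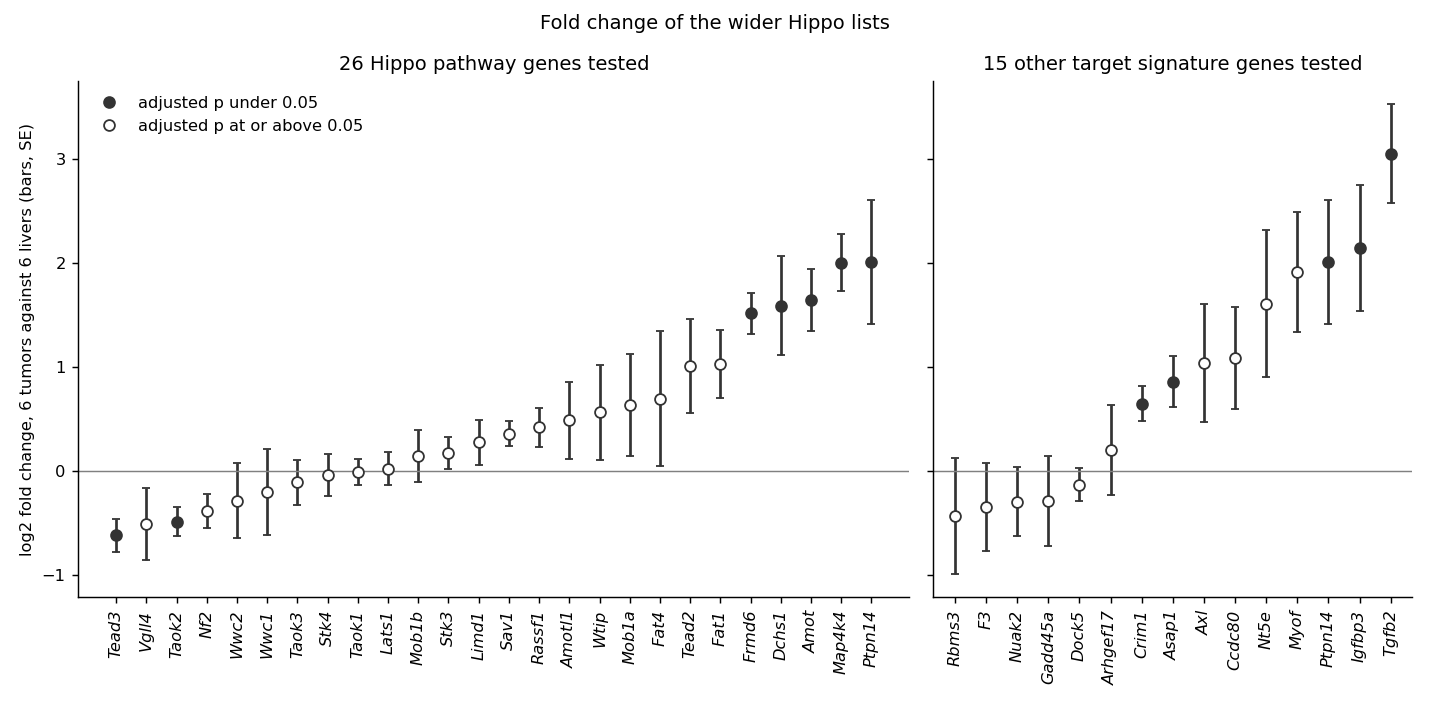
Log2 fold change of 6 tumors against 6 livers (y axis) for the 26 further Hippo genes and the 15 other target genes tested (x axis, sorted by value); bars are the SE and filled points have an adjusted p under 0.05. Map4k4 (2.00), Frmd6 (1.52), Amot (1.64), and Tgfb2 (3.05) are the points whose call held in all 17 alternatives.

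Summed markers of endothelial, stellate, biliary, and hepatocyte cells moved with the same classes, though not every marker did. The summed CPM of 6 endothelial markers was between 47.9 and 120.6 in the livers, 50.3 and 90.6 in the Ctnnb1-mutated tumors, and between 131.0 and 217.7 in the others. Between the classes, Pecam1 (-1.50), Kdr (-1.94), and Cdh5 (-1.98) of these 6 were lower in the Ctnnb1-mutated tumors, and over all tumors Pecam1 rose (1.59). Stab2 did not follow this sum, and its highest tumor was T-HCC663 (43.8 CPM). The sum of 8 stellate and fibroblast markers was between 48.4 and 249 in the livers, 28.4 and 83.8 in the Ctnnb1-mutated tumors, and between 165 and 397 in the others, with Des (-2.10), Dcn (-2.69), and Pdgfrb (-1.80) lower between the classes. Of these 8 markers, 5 were above the livers in the other tumors. Lrat was below the own liver in all 6 mice, Des in 5, and Dcn in 4. The sum of 5 biliary markers was between 50.9 and 134.0 in the livers, 17.8 and 35.5 in the Ctnnb1-mutated tumors, and between 60.8 and 1064 in the others, with Sox9 lower between the classes (-3.57). Most of the biliary sum is Spp1 (1037 of 1064 CPM in T-HCA992) or, in TCi-HCC981, Sox9 (56.3 of 60.8 CPM), and only 2 of the 5 markers were above the livers in these 4 tumors (median log2 fold change -0.25). The sum of 6 hepatocyte markers was between 28980 and 53361 in the livers, 15888 and 32025 in the Ctnnb1-mutated tumors, and between 64466 and 93652 in the others, with Alb (-2.47) and Serpina1c (-2.36) lower between the classes. In the other 4 tumors most of this sum is Alb (72143 of 93652 CPM in T-HCC941). Only 2 of the 6 markers were above the livers there (median log2 fold change -0.35), with Alb called higher and Tat lower. The sums of 5 macrophage markers overlapped between the classes (57.7 and 459 in the Ctnnb1-mutated tumors, 76.4 to 772 in the others), and the liver paired with TCi-HCC981 was at 1089, the other livers at 92.4 to 225. No endothelial or stellate marker was at 0 in any library, and of the biliary markers Krt7 and Krt19 were each at 0 in 1 library. Ctgf, Cyr61, Tead1, and Amotl2 are also transcribed in cells other than hepatocytes. The part of cell composition in the differences of the genes above, Tead4, Lats2, Cyr61, Wwtr1, Ajuba, Tgfb2, and Igfbp3 among them, was not tested.

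The genes whose log2 CPM followed Yap1 most closely over the 12 libraries, of 13813 compared, were Fam175b (Pearson r = 0.947), H6pd (0.912), and Nr5a2 (0.885). For Ctgf they were Glce (0.88), Mgat2 (0.867), and Uap1 (0.862), and for Ajuba Samd10 (0.960), Cdc42se1 (0.955), and Tprn (0.920). Each is the top of a ranking of all these genes over few libraries that share mice, and the values are given as a description.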

How the data were processed

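RNA was measured in 6 tumors and 6 non-tumoral livers of 6 mice. The authors selected poly(A) RNA, sequenced it as paired ends, mapped the quality-filtered reads with Subread (mm10 plus an mCherry sequence), and assigned them to genes with featureCounts 1.6.4, per the labels. The deposited values are raw counts, whole reads per gene symbol without normalization, and no replicates were pooled. Which annotation release they used, and how strand and multi-mapping reads were handled, is not given in the sources used here. Their own DESeq2 tests corrected for sequencing run, a term left out here since the sources do not tie samples to runs.

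The labels gave genotype and tissue, and the study's exome mutations gave the driver classes. Same-numbered samples come from 1 animal. The deviations of a tumor and its own liver from their group means correlated over 13822 genes with r = 0.169, 0.0398, and 0.00583 for T-HCC662, T-HCC663, and T-HCC941, with 0.427 for T-HCA992, and with 0.542 for each p21+/TertCi tumor. The last 2 values are equal by construction, since a group of 2 libraries has opposite deviations, and they count as 1. The median r with the other livers was -0.0462, 0.0538, 0.00265, and -0.0746 for the 4 p21+/Tert tumors in this order. For T-HCC663 the own liver was below this median, and for T-HCC941 it was close to it. The label of 1 p21+/Tert liver carries a number that no tumor has. It was paired with T-HCC662 by elimination (the header of its table names that mouse), and an alternative leaves this pair out. The correlation between 2 libraries was between 0.775 and 0.973, and no 2 were identical.

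Counts were scaled (TMM), filtered (filterByExpr), and tested with edgeR 4.0.16 in R 4.3.3 by its quasi-likelihood F test, all 12 libraries in each model, with Benjamini-Hochberg adjustment over all genes tested and a threshold of 0.05. The SE is the log2 fold change divided by the square root of F. CPM uses the TMM-scaled library size, and own-liver differences use log2 CPM with a prior count of 2. CPM per kb divides by the length of the exon union of GENCODE M21 on GRCm38, which may differ from the transcripts present. Promoter windows are from RefSeq. The alternatives were DESeq2 1.42.0, RLE size factors, no filter beyond 1 count, blocking by mouse with 6 or 5 pairs, only the libraries compared, each library left out in turn, and, for own-liver differences, a prior count of 0.5, RLE, and the mean of the 6 livers as reference.

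In simulated counts with 200 genes changed by 2 on the log2 scale, edgeR recovered 139 of tumors against livers, 98 between driver classes, 55 between Egfr or Hras and driver-negative tumors, and 4 of the genotype interaction. The members and lists were chosen with earlier results of these data known. The genes named are all 10 members, the listed genes called over all tumors or between driver classes, the 3 most abundant of each list not called, and the 3 genes that correlate best with Yap1, Ctgf, and the member of smallest p (Ajuba). Markers, Axin2, and Tert served as checks, and so did Glul, Cdkn1a, Xist, and Ddx3y.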

Additional observations from a re-analysis of the deposited data

Results flagged for a closer look

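Tead1 was at 29.4 CPM in the liver paired with TCi-HCC981, far from the other 5 livers, which lay between 4.93 and 12.1 CPM. The same liver had a summed level of 5 macrophage markers of 1089 CPM (92.4 to 225 in the other livers). Lats2 was at 18.7 CPM in the liver paired with T-HCA992, away from the other 3 p21+/Tert livers, between 13.7 and 14.4 CPM. These are 2 of 40 combinations of gene and group tested for a library that stands apart, and chance gives about 1 in 20. The part of a technical difference in these libraries was not tested.

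Differences between the Ctnnb1-mutated and the 4 other tumors were called for Tead4 (log2 fold change -3.61), Lats2 (-0.86), Ptpn14 (-2.75), Amot (-1.46), Stk4 (-0.78), and Rassf1 (0.75). Of these, Amot alone was also called when blocked by mouse with 6 pairs, and none with the 5 labelled pairs (Amot -1.83, adjusted p = 0.101).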

How the results depend on the processing

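The number of genes called depended on the tool and on single libraries. DESeq2 called 2407 genes in all tumors against livers (edgeR 1477), 2002 in the Ctnnb1-mutated tumors against livers (1181), 3023 between the driver classes (1795), 105 between Egfr or Hras and driver-negative tumors (0), 2109 in p21+/Tert tumors (986), 375 in p21+/TertCi tumors (0), and 10 for the genotype interaction (0). In p21+/TertCi tumors 1 gene was called with RLE size factors and 2 without the filter on low counts. With 1 library left out, the counts ran from 863 to 1988 for all tumors, 338 to 1264 for the Ctnnb1-mutated tumors, 380 to 1935 between the driver classes, 0 to 5 for Egfr or Hras against driver-negative tumors, 240 to 1192 for p21+/Tert tumors, and 0 to 7 for p21+/TertCi tumors. The counts of the 4 other tumors against livers stayed within 1.5 times of 3368 in every setting tried.

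The replicate block is the mouse, since same-numbered samples come from the same animal. Between the driver classes it gave 502 genes and 0 members, with the 5 labelled pairs 64 genes and 0 members, and with only the libraries compared 766 genes and 1 member. With the 5 labelled pairs the block gave 37 genes and 0 members in the Ctnnb1-mutated tumors and 649 genes and 0 members in p21+/Tert tumors, where only the libraries compared gave 1 member. In the Ctnnb1-mutated tumors 2 members were called by DESeq2, with RLE size factors, without the filter, and with the block, and DESeq2 called 1 member in p21+/TertCi tumors. With the 5 pairs, T-HCC663 is the only Ctnnb1-mutated tumor with a liver in the block, its single difference stands for the class, and the spread comes from the other mice. The block with 6 pairs changed no call of a gene that is not given beside its result. With 5 pairs the calls of Ajuba in the Ctnnb1-mutated tumors (adjusted p = 0.0630), of Ajuba (0.0516) and Wwtr1 (0.0665) in p21+/Tert tumors, of Taok2 over all tumors (0.0518), and of Amot between the classes (0.101) were also lost. With 1 library left out, the members called were 1 to 2 in the Ctnnb1-mutated tumors, 2 to 5 in the 4 others, 0 to 2 between the driver classes, and 0 to 2 in p21+/Tert tumors. Over all tumors 2 members were called with each library left out. Fitting only the libraries compared is the same fit for the genotype interaction.

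The sign of values near 0, none of them called, turned in some settings. With the block, Gadd45a over all tumors was at 0.049 (0.19 with 5 pairs) and Cyr61 in the Ctnnb1-mutated tumors at -0.033, and with 5 pairs Wwtr1 between the classes was at -0.00032. With 1 library left out, the values ran over all tumors from -0.060 to 0.080 for Yap1, -0.078 to 0.055 for Taok1, and -0.49 to 0.25 for Gadd45a. They ran in the Ctnnb1-mutated tumors from -0.88 to 0.57 for Tead4 and -0.20 to 0.54 for Cyr61, and in the 4 others from -0.33 to 0.024 for Amotl2. Between the classes they ran from -0.56 to 1.06 for Ajuba and -0.41 to 0.56 for Wwtr1. The cause was not tested. Of 60 own-liver differences, 40 were higher in the tumor, and 40 to 41 under the other prior count, scaling, and reference; Tead4 at 1 to 4 reads in the livers is limited by depth.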
